A study of Mus musculus with 2 samples.

Results

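The genes described here are 10 chromatin regulators, 9 Polycomb group genes (Bmi1, Ezh1, Ezh2, Eed, Suz12, Cbx2, Cbx7, Ring1 and Rnf2) and Asxl1, taken by gene name from the 34745 genes of the deposited tables. All 10 had reads in both libraries. The libraries were made from RNA of bone marrow LSKs, which are lineage-negative cells sorted for Sca1 and c-Kit, of Scl/tTA-BA mice on the C57BL/6 background. In these mice the Scl/tTA transgene provides the tetracycline transactivator tTA in hematopoietic stem and progenitor cells. When doxycycline is withdrawn, tTA switches on the human fusion gene BCR/ABL (BA), the cause of chronic myelogenous leukemia. Mice of both groups carried both transgenes. LSKs of 3 mice still on doxycycline were mixed for the week-0 library, and LSKs of 3 mice without doxycycline for 3 weeks were mixed for the week-3 library. Age and sex of the mice and the share of LSKs that expressed BA are not given in the labels. With 1 library per time point there is no estimate of the variation between mice, and each comparison is between these 2 libraries.

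Polycomb proteins keep developmental genes silent through marks on histones. Polycomb repressive complex 2 (PRC2) methylates lysine 27 of histone H3 and is built on the methyltransferase Ezh2 or its paralog Ezh1 with Eed, which binds the methyl mark, and the scaffold Suz12. PRC1 ubiquitinates histone H2A through the RING finger ligases Ring1 (also called Ring1a) and Rnf2 (Ring1b), paired with a PCGF protein such as Bmi1, and its CBX subunits, among them Cbx2 and Cbx7, read the mark left by PRC2. Asxl1 is a cofactor of Bap1, the enzyme that removes ubiquitin from H2A in the PR-DUB complex, and it is often mutated in myeloid malignancies. Bmi1 is needed for self-renewal of hematopoietic stem cells, where it represses the Cdkn2a locus, and Ezh2 is typical of dividing cells whereas Ezh1 is found in resting cells too.

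The genes that passed both the test and a 2-fold limit were Suz12, which rose, and Ring1, which fell, while Ezh2 passed the test at less than 2-fold. The 250 bases before their RefSeq transcript starts (GRCm38.p6, 5′ to 3′ on the strand of the gene) are shown since these genes moved in opposite directions. Capitals mark matches to the E2F motif, searched on both strands as TTTCCCGC, TTTCGCGC, TTTGCCGC and TTTGGCGC. E2F factors drive genes of the cell division cycle.

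Suz12, plus strand, chr11:79992856-79993105: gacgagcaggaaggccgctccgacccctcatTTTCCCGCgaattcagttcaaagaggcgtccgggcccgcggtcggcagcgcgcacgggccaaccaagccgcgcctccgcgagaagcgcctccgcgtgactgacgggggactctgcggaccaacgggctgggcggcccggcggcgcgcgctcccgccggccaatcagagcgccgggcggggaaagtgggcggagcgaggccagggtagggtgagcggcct

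Ring1, minus strand, chr17:34024681-34024930: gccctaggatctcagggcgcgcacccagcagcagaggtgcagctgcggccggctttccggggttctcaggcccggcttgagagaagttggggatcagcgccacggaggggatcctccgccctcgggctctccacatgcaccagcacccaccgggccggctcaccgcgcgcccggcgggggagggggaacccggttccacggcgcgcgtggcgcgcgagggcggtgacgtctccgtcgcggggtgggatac

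The Suz12 promoter held a TTTCCCGC beginning 219 bases before the start, and no E2F match was found before the start of Ring1. Windows of 300 bases, 250 before the start and 50 after it, were found for 9 of the 10 genes, Cbx2 being the exception. Among these 9 windows, 2 had an E2F match, against 2.26% of the 32851 windows of all genes. The other was in Ezh2, where the match begins at base 4 of the transcript and is shown with its surroundings.

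Ezh2, minus strand, chr6:47595009-47595038: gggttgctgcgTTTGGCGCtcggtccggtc

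None of the 9 windows held the STAT5 motif TTCNNNGAA, which was in 8.30% of all windows. The windows were rich in CpG, from 13 CpG in Asxl1 to 41 in Suz12, where the median of all windows was 7. The E2F motif itself holds a CpG. The shares over all windows are therefore not a background matched for CpG, and no excess of E2F matches can be read from them. A match or its absence describes these letters only and says nothing about binding.

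Gene counts summed to 6356164 reads before BA induction (week-0) and to 3886695 after it (week-3). A count of 3 reads, used as the floor, corresponds to 0.472 RPM (reads scaled to a common library total) at week-0 and to 0.772 RPM at week-3. The lowest count of any of the 10 genes was 43 reads. The sorting markers were present in both libraries, where FPKM, the deposited level scaled to exon length and library total, was 16.9 and then 11.5 for Kit (c-Kit) and 19.8 and then 14.8 for Ly6a (Sca1). Among LSK marker genes, Flt3 and Procr fell. Markers of other cells also differed between the libraries. Genes said to rise or fall here were called by the rule of the next paragraph. By that rule 8.11% of all tested genes were higher at week-3 and 10.1% were lower. All 9 granulocyte marker genes rose, with a summed FPKM of 2031 that became 10974, and all 6 tested of 8 mast cell genes rose (summed FPKM 120 and 3203), where Tpsb2 and Mcpt4 had no read at week-0. Of 9 erythroid genes 7 fell (summed FPKM 1557 and 179), and of 7 plasma cell genes 5 fell (326 and 56.5). Of 8 tested surface genes of mature lineages excluded by the sort, 1 fell, Cd79a of B cells (114 and then 2 reads), whereas the myeloid genes Itgam (30 and 30 reads) and Ly6g (5 and 5 reads) were not called. Cd3e and Cd8a were at 0 reads at week-3, after 5 and 3 reads at week-0. Immediate-early genes, which respond to cell handling as well as to signals, fell in 12 of 14 tested cases (4.07% of all reads, later 1.21%). In bulk RNA, fewer cells of a type and less RNA per cell cannot be told apart, and the part of these differences in the values of the Polycomb genes was not tested.

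A gene was called when its FPKM ratio between week-3 and week-0 was at least 2 or at most 0.5 and its Benjamini-Hochberg q-value in edgeR's exact test on the reads was under 0.05. The test ran on the 15377 genes with reads in both libraries with an assumed biological coefficient of variation of 0.1. Intervals given below at 95% are exact (Clopper-Pearson) and cover counting error only. Of the 10 genes, 1 was called higher at week-3, where 8.11% of all tested genes were, and 1 was called lower, where 10.1% were. These counts are near the background. With fold limits of 1.5 and 0.67, 2 of the 10 were higher (14.6% of all tested genes) and 1 was lower (13.6%). The median log2 ratio of the 10 genes was 0.38 and that of all tested genes 0.09. The ratio was above 1 for 8 of the 10 genes and for 53.7% of all tested genes.

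**Figure D1:**
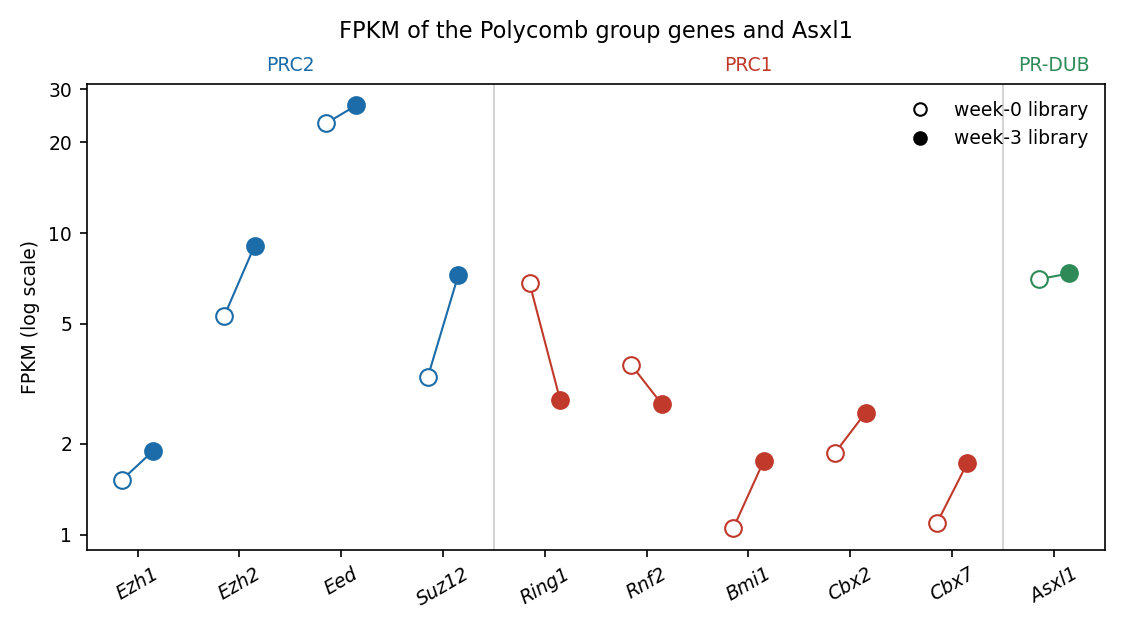
FPKM (log axis) of each gene in the week-0 library (open circle) and the week-3 library (filled circle), 1 library each, grouped by complex. All 4 PRC2 genes were at a higher FPKM at week-3, as were 53.7% of all tested genes, and the intervals of Ezh1 and Eed held 0. Ring1 went from 6.82 to 2.80 and Rnf2 from 3.65 to 2.71.

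All 4 PRC2 genes among the 10 had a higher FPKM at week-3, as did 53.7% of all tested genes. The intervals of Ezh1 and Eed held 0, and Suz12 passed the test and the 2-fold limit. Suz12 (ENSMUSG00000017548, chromosome 11 of GRCm38, from 79993106 to 80034123, plus strand) was covered by 171 reads before BA induction and by 228 after it, although the later library was the shallower one. Its FPKM rose from 3.33 to 7.25, 2.18-fold, a log2 ratio of 1.12 (95% interval 0.83 to 1.42, edgeR q = 0.000102). It lay just inside the fold limit, with a log2 ratio of 1.01 after TMM scaling and 0.93 with a pseudocount of 1, and its call was lost with an assumed coefficient of variation of 0.2 (edgeR q = 0.0890). The locus overlaps Gm26563, a lincRNA on the other strand with 53 and 45 reads, and reads of the overlap cannot be assigned if counting ignored strand.

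Ezh2 (ENSMUSG00000029687, chromosome 6, from 47530139 to 47595341, minus strand) was covered by 305 and 320 reads, and its FPKM was 5.30 before and 9.09 after induction. The log2 ratio was 0.78 (95% interval 0.55 to 1.01, edgeR q = 0.00567). This is 1.72-fold, short of the limit of 2, so Ezh2 was called only with the limits of 1.5 and 0.67. Ezh1 (ENSMUSG00000006920, chromosome 11) was covered by 108 and 82 reads, with FPKM values of 1.52 (week-0) and 1.89 (week-3). Its log2 ratio of 0.31 had an interval from -0.12 to 0.74, so a difference was not detectable at this depth. Eed (ENSMUSG00000030619, chromosome 7) had the highest FPKM of the 10 genes in both libraries, 23.1 (370 reads) before and 26.6 (260 reads) after induction. Its log2 ratio was 0.20 with an interval from -0.03 to 0.43, which holds 0 and lies below the 2-fold limit.

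The remaining core subunits, the histone binding proteins Rbbp4 and Rbbp7, are shared with other chromatin complexes and were not called. Their log2 ratios were -0.13 for Rbbp4 (1064 and 594 reads) and 0.14 for Rbbp7 (1983 and 1335 reads). Next come 22 genes of S phase and mitosis, listed here because PRC2 genes are known to follow cell division. Of these, 19 had a ratio above 1 (86.4%, against 53.7% of all tested genes). Their median log2 ratio was 0.32, and that of all tested genes 0.09. At 2-fold 1 of them was called, Rrm2, a subunit of ribonucleotide reductase, which rose (4.55%, below the background of 8.11%). With the limits of 1.5 and 0.67, at which Ezh2 was called, 7 of the 22 were higher (background 14.6%), among them the mitotic cyclin Ccnb1 (393 and 480 reads) and the mitotic kinases Aurka (log2 ratio 0.82) and Plk1 (0.79), and 1 was lower, the cyclin Ccna2 (log2 ratio -0.69). Mki67 was at an FPKM of 17.2 and 16.5. The part of cell division in the values of Suz12 and Ezh2 was not tested.

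Of 7 factors that recruit or tune PRC2, 2 fell (28.6%, background 10.1%) and none was called higher (background 8.11%). Phf19, a Polycomb-like protein that brings PRC2 to chromatin, fell from 83 to 21 reads, a log2 ratio of -1.27 (95% interval -2.04 to -0.57, edgeR q = 0.0101). Lcor, whose locus also encodes a PRC2 partner, fell from 187 to 52 reads (log2 ratio -1.14). Mtf2, another Polycomb-like gene, had 375 and 386 reads and a log2 ratio of 0.75, and was called higher only with the limits of 1.5 and 0.67. The log2 ratio was 0.39 for Jarid2 and 0.68 for Aebp2, and neither was called at 2-fold. Epop, listed in the tables under its older name E130012A19Rik, was at 0.00.

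**Figure D2:**
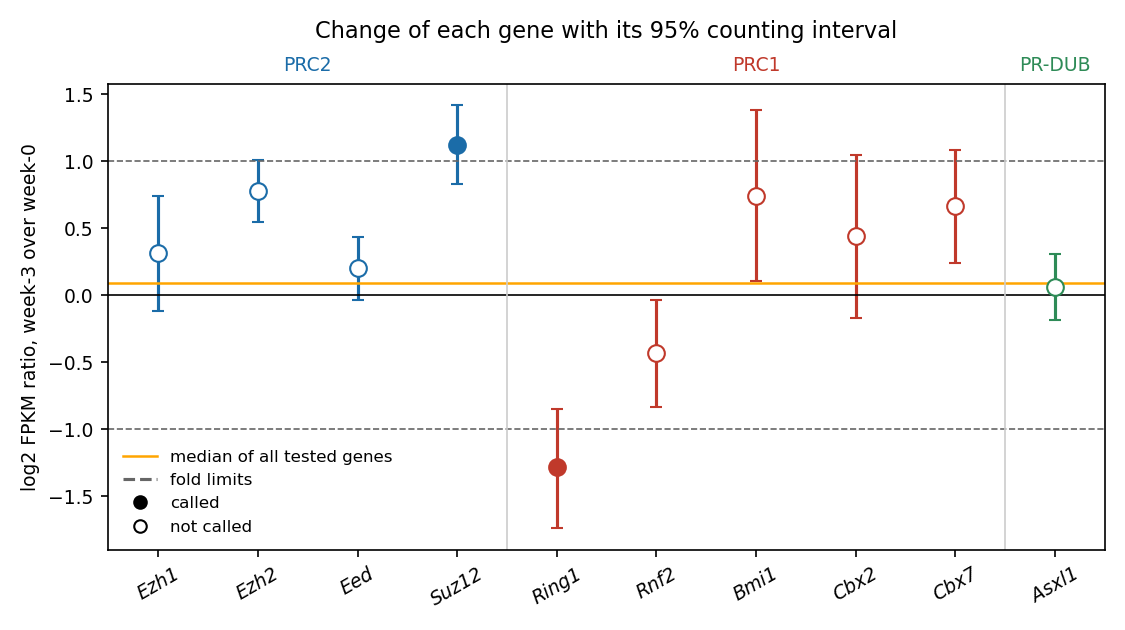
Log2 FPKM ratio of week-3 over week-0 for each gene, with bars for the 95% counting interval (Clopper-Pearson), dashed lines at the 2-fold limits and an orange line at the median of all tested genes (0.09). Suz12 (1.12) and Ring1 (-1.28), drawn as filled circles, were called.

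Both RING finger ligases of PRC1 had a lower FPKM at week-3, and Ring1 passed the test and the 2-fold limit. Ring1 (ENSMUSG00000024325, chromosome 17, from 34020792 to 34024680, minus strand) was covered by 215 reads before and 54 reads after induction. Its FPKM fell from 6.82 to 2.80, 2.43-fold lower, a log2 ratio of -1.28 (95% interval -1.74 to -0.85, edgeR q = 0.000156). This call was also lost with a coefficient of variation of 0.2 (edgeR q = 0.0603). Rnf2 (ENSMUSG00000026484, chromosome 1) was covered by 172 and 78 reads, with FPKM values of 3.65 (week-0) and 2.71 (week-3). Its log2 ratio of -0.43 (interval -0.84 to -0.04) was not called (edgeR q = 0.296). Rnf2 overlaps Trmt1l on the other strand, which went from 90 to 140 reads, and Gm36527 on its own strand, which had 59 and 24 reads, and reads in the overlaps could have been given to either gene.

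Bmi1 (ENSMUSG00000026739, chromosome 2) had the fewest reads of the 10 genes, 43 before and 44 after induction. Its FPKM was 1.05 and 1.76, a log2 ratio of 0.74 with a wide interval from 0.10 to 1.38, and it was not called (edgeR q = 0.156). The other PCGF proteins, which take the place of Bmi1 in different forms of PRC1, included 1 called gene. Pcgf1, the PCGF of the variant complex with Bcor and Kdm2b, rose (56 and 76 reads), its FPKM going from 3.06 to 6.79 (log2 ratio 1.15, 95% interval 0.63 to 1.67). Pcgf2 (Mel18), the closest paralog of Bmi1, had 31 and 9 reads, a log2 ratio of -1.07 that was not called. Pcgf5 had 227 and 107 reads and a log2 ratio of -0.38, and Pcgf3 and Pcgf6 had log2 ratios of 0.08 and 0.69, none of them called.

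The CBX proteins tether canonical PRC1 to the PRC2 mark. Cbx2 (ENSMUSG00000025577, chromosome 11) was covered by 53 and 44 reads, with FPKM values of 1.87 (week-0) and 2.54 (week-3), a log2 ratio of 0.44 whose interval from -0.17 to 1.05 holds 0. Cbx7 (ENSMUSG00000053411, chromosome 15), the CBX protein known to favour self-renewal of hematopoietic stem cells, had 98 and 95 reads. Its FPKM values were 1.09 (week-0) and 1.73 (week-3), a log2 ratio of 0.66 (interval 0.24 to 1.09) that was not called (edgeR q = 0.0756). Cbx7 overlaps Apobec3 on the other strand, which had 923 and 1013 reads (FPKM 10.7 and 19.2), far more than Cbx7. Reads of this overlap cannot be assigned if counting ignored strand. The log2 ratio was 0.74 for Cbx8 and 0.02 for Cbx6, and neither was called.

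The largest falls in PRC1 were outside the CBX and RING genes. Phc1, a polyhomeotic protein through which PRC1 forms larger assemblies, fell from 246 to 30 reads, its FPKM going from 3.82 to 0.762, a log2 ratio of -2.33 (95% interval -2.92 to -1.78, edgeR q = 2.433e-11). Its paralogs had log2 ratios of 0.43 (Phc2, 186 and 153 reads) and -0.85 (Phc3, 189 and 64 reads), neither called at 2-fold. Scmh1, a sex comb on midleg homolog that binds PRC1, fell from 217 to 58 reads (log2 ratio -1.19). Scml2 also fell, with 20 and then 2 reads, and its log2 ratio of -2.61 is known only within -5.75 to -0.57.

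In variant PRC1, which lacks CBX proteins, 4 of 11 genes fell (36.4%, background 10.1%) and 1 rose (9.09%, background 8.11%). Bcor, a corepressor often mutated in myeloid leukemia, fell from 563 to 108 reads, its FPKM going from 9.79 to 3.07, a log2 ratio of -1.67 (95% interval -1.98 to -1.37, edgeR q = 1.339e-09). Its paralog Bcorl1 fell by 1.28 on the log2 scale, Rybp, which binds the RING ligases in place of CBX proteins, by 1.33, and Auts2, a partner of Pcgf3 and Pcgf5, by 1.38. L3mbtl2, a partner of Pcgf6, rose from 113 to 143 reads (log2 ratio 1.05, and under the 2-fold limit after TMM scaling). Kdm2b, which brings Pcgf1 complexes to CpG islands, had 341 and 151 reads and a log2 ratio of -0.47 that was not called.

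**Figure D3:**
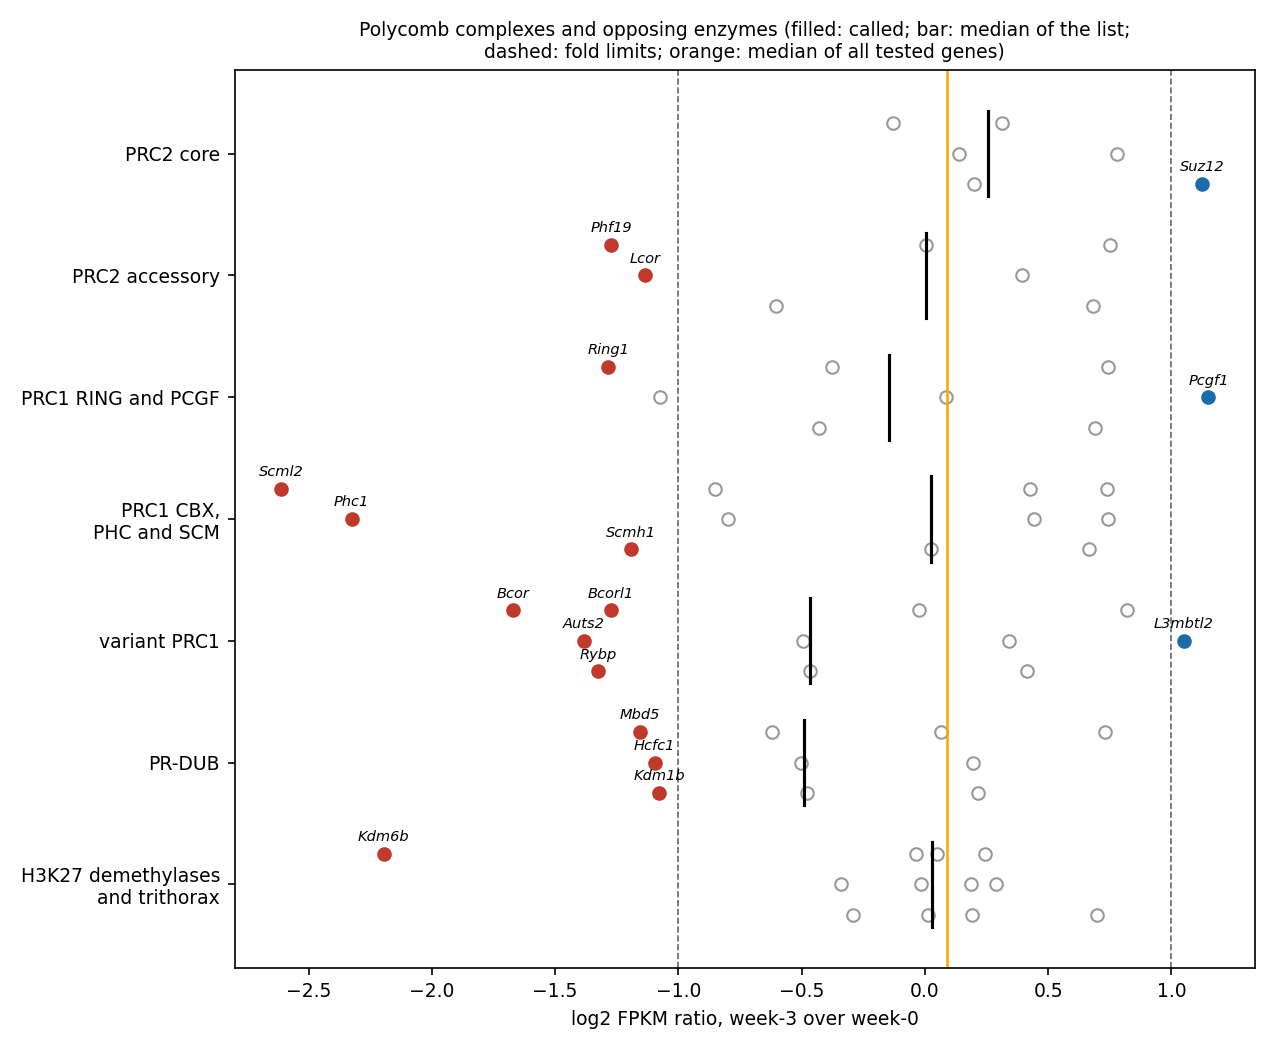
Log2 FPKM ratio of week-3 over week-0 (x axis) for each tested gene of the PRC2, PRC1, PR-DUB and opposing lists (rows). Filled points with names were called, open points were not, the short bar is the median of the list, dashed lines are the 2-fold limits and the orange line is the median of all tested genes (0.09). In the 3 PRC1 rows together 8 genes were called lower (26.7%, background 10.1%) and 2 higher (6.67%, background 8.11%).

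Over the 3 PRC1 lists, 8 of 30 genes were called lower (26.7%, background 10.1%) and 2 higher (6.67%, background 8.11%), with a median log2 ratio of -0.20. Over both PRC2 lists, 2 of 13 genes were lower (15.4%) and 1 was higher (7.69%), near the same background, with a median of 0.20. Over all 6 lists, which hold 54 genes with the 10 described here among them, 13 of 53 tested genes were lower (24.5%) and 3 were higher (5.66%), and their median log2 ratio was 0.00. With an assumed coefficient of variation of 0.2, the genes still called were Bcor and Phc1, both lower. The lists were drawn up with earlier results of these data known, and these counts are given as a description without a test.

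Asxl1 (ENSMUSG00000042548, chromosome 2, from 153345845 to 153404007, plus strand) was covered by 355 and 227 reads, and its FPKM was 7.03 before and 7.35 after induction. The log2 ratio of 0.06 had an interval from -0.18 to 0.31 (edgeR q = 0.952), which lies inside the 2-fold limits on both sides, and it was -0.05 after TMM scaling and -0.02 after median-of-ratios scaling. Asxl1 overlaps 2500004C02Rik on the other strand, which had 59 and 22 reads, and the same limit on strand holds for this overlap. Asxl2, its paralog, had 215 and 218 reads and a log2 ratio of 0.73, called higher only with the limits of 1.5 and 0.67, and Asxl3 had no read in either library. Bap1, the catalytic subunit, had 553 and 239 reads and a log2 ratio of -0.50 that was not called. Of the 10 tested genes of PR-DUB 3 fell (30%, background 10.1%) and none was called higher at 2-fold (background 8.11%). Those that fell were Hcfc1, a cofactor that Bap1 binds (1808 and 517 reads, log2 ratio -1.10), Mbd5 (-1.16) and the histone demethylase Kdm1b (-1.08).

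Of 12 genes whose products oppose Polycomb, 1 fell, Kdm6b (8.33%, background 10.1%). None was called higher at 2-fold (background 8.11%), and the median log2 ratio was 0.03. With the limits of 1.5 and 0.67, 1 was higher (background 14.6%), Dpy30 (729 and 723 reads, log2 ratio 0.70), and Kdm6b was again the 1 lower (background 13.6%). Kdm6b, a demethylase that removes the PRC2 mark, fell from 9927 to 1325 reads, its FPKM going from 215 to 46.9, a log2 ratio of -2.20 (95% interval -2.28 to -2.11, edgeR q = 3.640e-22). The tested immediate-early genes had a median log2 ratio of -1.55, and a relation of Kdm6b to them was not tested. Kdm6a, the X-linked demethylase of the same mark, had 133 and 82 reads and a log2 ratio of 0.01, and the trithorax methyltransferase Kmt2a had -0.34.

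Genes known as Polycomb targets in blood stem cells were low or absent in part. Cdkn2a, the tumour suppressor locus held silent by Bmi1, had 0 reads in both libraries, which allows up to 0.472 RPM (week-0) and 0.772 RPM (week-3). Cdkn2b had 3 and 2 reads, and no fold is given. Hoxa10 fell from 158 to 31 reads (log2 ratio -1.64) and Hmga2, a fetal stem cell gene, from 128 to 26 reads (-1.59), whereas Hoxa9 was at an FPKM of 7.97 and 7.55 and was not called. Igf2bp3 was called higher on 9 and 16 reads, with an interval of the log2 ratio from 0.27 to 2.90. The B-lineage factor Ebf1 had 15 and then 1 read, was not called, and lay in the same direction as the plasma cell genes. The part of other cell types in these values was not tested.

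Ratios between paralogs within a library do not depend on how the libraries are scaled. The ratio of Rnf2 to Ring1 FPKM was 0.535 before and 0.966 after induction, a change of 0.85 on the log2 scale (95% conditional exact interval 0.25 to 1.46), so that the RING ligases were at nearly equal FPKM at week-3. Ezh2 was at 3.48 times the FPKM of Ezh1 at week-0 and at 4.80 times at week-3, a change of 0.47 whose interval from -0.02 to 0.96 holds 0. The ratio of Bmi1 to Pcgf2 went from 1.13 to 3.99 (change 1.82, interval 0.50 to 3.23), with 9 reads of Pcgf2 at week-3. The ratio of Asxl1 to Asxl2 went from 6.41 to 4.04 (change -0.67, interval -1.04 to -0.29). For Cbx2 to Cbx7 the change of -0.22 had an interval from -0.97 to 0.52, and none was detectable at this depth.

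**Figure D4:**
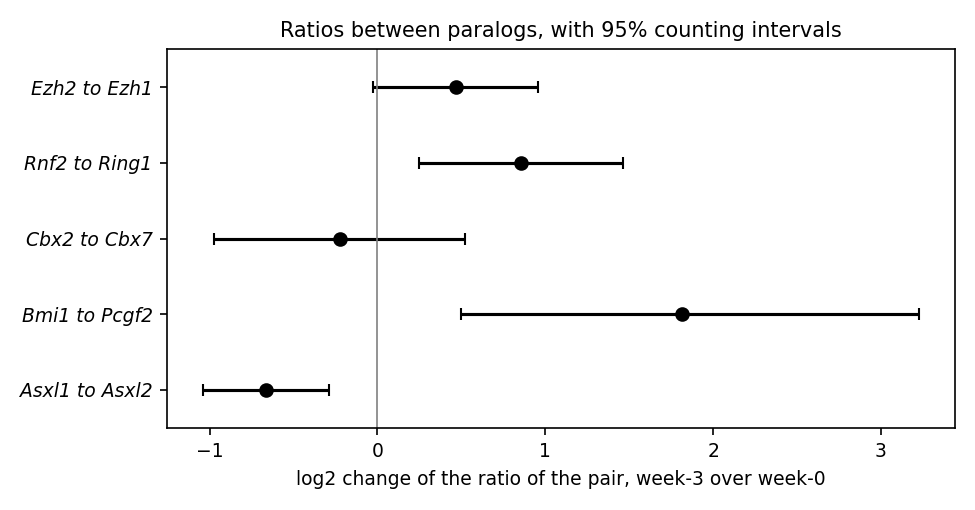
Log2 change of the ratio between paralogs from the week-0 to the week-3 library (x axis, 1 row per pair), with bars for the 95% conditional exact interval from the reads. The intervals of Rnf2 to Ring1 (0.25 to 1.46), Bmi1 to Pcgf2 (0.50 to 3.23) and Asxl1 to Asxl2 (-1.04 to -0.29) do not hold 0.

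The order of the levels within a library depends on the length used. By the deposited FPKM, the order at week-0 was Eed, Asxl1, Ring1, Ezh2, Rnf2, Suz12, Cbx2, Ezh1, Cbx7 and Bmi1, and at week-3 it was Eed, Ezh2, Asxl1, Suz12, Ring1, Rnf2, Cbx2, Ezh1, Bmi1 and Cbx7. The length behind the deposited FPKM, computed from reads and FPKM, equalled the summed length of all distinct annotated exons in GENCODE M21 within 1 base for 8 of the 10 genes, so that overlapping exons of different transcripts were counted more than once. It was above the length of the merged exons for 9 of the 10 genes, by 2.18 times for Cbx7 and 1.80 times for Rnf2, while for Eed it was 0.658 times that length. With RPM per kilobase of the longest coding transcript, the levels at both times were 17.2 and 29.5 for Ezh2, 28.2 and 32.4 for Eed, 16.6 and 6.83 for Ring1 and 4.55 and 7.21 for Cbx7. On this scale Eed was also first and Ezh2 was second in both libraries, and Cbx7 lay above Cbx2. Ratios between the libraries are the same with either length.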

How the data were processed

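RNA-seq of LSKs sorted from bone marrow of Scl/tTA-BA mice was used, with 1 library at week-0 and 1 at week-3 after doxycycline withdrawal, each from 3 mice mixed. Per the labels and the study's methods, the authors made cDNA with a SMARTer low-input kit, sequenced paired ends, and mapped trimmed reads to GRCm38 (mm10) with TopHat2 2.0.9. The counting tool, its strand setting, whether the mates of a pair were counted once, and the annotation release are not given in the sources used here. The authors deposited counts (whole numbers of reads per gene, not normalized) and FPKM scaled by exon length and total reads. For all 15377 genes with reads in both libraries, FPKM ratios equalled ratios of RPM (reads scaled to a common library total) within 1%.

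The deposited tables were joined by Ensembl identifier. Coordinates are those of the tables, and strand, overlaps and transcript lengths come from GENCODE M21. Calls used edgeR 4.0.16 (R 4.3.3), exact test, dispersion 0.01, total reads as library sizes, Benjamini-Hochberg q under 0.05 over 15377 genes and fold limits of 2 and 0.5. The test compares these libraries, not the conditions. Alternatives were coefficients of variation of 0.2 and 0.4, TMM, size factors of DESeq2 1.42.0, genes above 0 in either library, at least 10 reads over both, limits of 1.5 and 0.67, and pseudocounts of 0.1 and 1. The length of the longest coding transcript, and the repeat of the alternatives for the 54 wider Polycomb genes, were added after seeing the data. Intervals at 95% cover counting error only, as amplified reads are not independent molecules. Procedures were tested on simulated data. Python 3.11.15, scipy 1.17.1 and pandas 2.3.3 were used.

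The 10 genes and all lists were chosen with earlier results of these data known. Named were all 10 genes, each called gene of the Polycomb, PR-DUB, opposing and target lists, their paralogs, and a few genes of the other lists. Some genes of the lists are not reported here. Other Polycomb genes named without a call were chosen after their values were seen.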

Additional observations from a re-analysis of the deposited data

How the results depend on the processing

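No paired analysis was possible because each time point has 1 library, and for the same reason no replicate could be left out. The assumed coefficient of variation decided the calls. With 0.2 in place of 0.1, 0 of the 10 genes were called higher and 0 lower, the wider Polycomb genes had 0 higher and 2 lower in place of 3 and 13, and all genes had 601 higher and 939 lower in place of 1247 and 1548. With 0.4, the counts were 0 and 0 for the 10 genes, 0 and 0 for the wider genes, and 29 and 87 for all genes. With fold limits of 1.5 and 0.67, 2 of the 10 genes and 8 of the wider genes were higher, and 2252 of all genes. Neither TMM nor median-of-ratios scaling nor the filters on low counts moved the calls of Suz12 and Ring1. TMM lowered every log2 ratio by 0.11 and median-of-ratios scaling by 0.09, which turned the log2 ratio of Asxl1 to -0.048 and -0.025. The median log2 ratio of the 10 genes was between 0.25 and 0.38 under the scalings and pseudocounts tried. With the length of the longest coding transcript, the ratio of Cbx2 to Cbx7 turned to 0.481 (week-0) and 0.412 (week-3), and that of Bmi1 to Pcgf2 at week-0 to 0.959. The ratio of Asxl1 to Asxl2 was then 2.11 (week-0) and 1.33 (week-3). The spread between mice is unknown, and the low counts of Bmi1 and Cbx2 leave wide intervals.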

Other observations

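The length behind the deposited FPKM was also compared with GENCODE M21 for the wider Polycomb genes. Among the 53 genes with reads at week-0, it equalled the summed length of all distinct exons within 1 base for 41 genes and was above the merged exon length for 47. The ratio of these lengths ran from 0.131 (Pcgf5) to 2.91 (Mtf2). A deposited FPKM is low where this ratio is above 1 and high where it is below 1, relative to an FPKM on merged exons.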
